A study of Drosophila melanogaster with 9 samples.

Results

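The Drosophila basement membrane genes were followed in RNA-seq of the larval wing pouch, the part of the wing disc that forms the wing blade. The set holds Col4a1, vkg, LanA, LanB1, LanB2, trol, Ndg, SPARC, Mmp2 and Timp. It was chosen by function, with earlier results of these data known. Its members were found in the deposited table by FlyBase gene identifier. Of these 10 genes, 8 were matched among 15682 genes, and LanB2 and trol are not analysed here. The study asked how RNA interference against the long noncoding RNA CR32027 changes wing pouch expression, with 3 libraries for each of 3 genotypes.

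Males with a hairpin were sons of hairpin fathers from the lines CR32027-IR1 (VDRC 26860) or CR32027-IR2 (VDRC 103512). The control males were sons of OreR, a wild-type strain, and carried no hairpin. All 3 genotypes shared their mothers' background, w1118 with Bx-GAL4 (also called MS1096, Bloomington 25706) and UAS-dicer2, so the driver and the extra Dicer-2 transgene were present in the controls too. Bx-GAL4 drives the hairpin in the wing pouch. Each hairpin was tested in a single line. Larvae at the wandering stage of the third instar had been raised at 25 °C, 30 discs were dissected per genotype, and the notum, the part that forms the back of the thorax, was cut away. The labels say that RNA was extracted in triplicate but not that the triplicates came from separate crosses. The p-values below therefore reflect library-to-library spread that could be technical.

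A basement membrane is a thin sheet of extracellular matrix under an epithelium. Its networks are built from laminin trimers and from collagen IV trimers, and nidogen and the proteoglycan perlecan bind to both. In Drosophila the collagen IV chains are encoded by Col4a1 and vkg, nidogen by Ndg, the laminin alpha, beta and gamma chains by LanA (with wb for a second alpha chain), LanB1 and LanB2, and perlecan by trol. Larval fat body is the main known source of the collagen IV on imaginal discs, which reaches them through the hemolymph, and blood cells (hemocytes) also make it. SPARC is a collagen-binding glycoprotein that collagen IV secretion depends on. Mmp1 and Mmp2 are the fly's matrix metalloproteinases, which cleave matrix proteins, and Timp is their secreted inhibitor.

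CR32027 itself averaged 3.57 ± 0.793 RPKM in the CR32027-IR1-labelled libraries, 0.905 ± 0.432 RPKM in CR32027-IR2 and 2.74 ± 0.495 RPKM in OreR (SD, n = 3 each). The libraries with the CR32027-IR1 label thus showed no reduction of the target against OreR (limma log2 change 0.29, adjusted p = 0.348), and every direction given for those libraries refers to the label. Libraries held 25070343 to 36512316 reads. The dissected tissue carried its defining markers, with 6 matched wing pouch genes summing to 58.8 to 65.3 RPKM in the CR32027-IR1-labelled libraries, 65.3 to 68.6 RPKM in CR32027-IR2 and 66.8 to 68.8 RPKM in OreR. Listed notum markers, 6 of 6 matched, summed to 23.2 to 28.8, 24.2 to 27.1 and 21.9 to 24.7 RPKM in the same order. Most of that sum was ara, caup and mirr, while pnr reached at most 0.0727 RPKM and tup 0.0165 RPKM. The remaining notum gene, eyg, was between 0.906 and 1.68 RPKM. Whether notum tissue remained was not tested. RPKM divides the reads of a gene by its length and by the depth of the library. The gene length used was close to the whole genomic span, introns included, for most genes, so RPKM cannot be compared between genes here. Sums of RPKM over a marker list are set side by side between libraries only, and they mostly reflect the genes with the highest RPKM.

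A single library stood apart in blood cell genes and touches several results. Replicate 2 labelled CR32027-IR1 was the lowest of the 9 libraries for 10 of 14 matched blood cell markers, while 18.9% of all tested genes were lowest there. The plasmatocyte genes Hml, NimC1 and eater, which encode a clotting protein and phagocytic receptors of the main larval blood cell, were at 8.23%, 14.5% and 10.2% of the mean of the other libraries with that label. Their summed level was 3.3, 0.425 and 3.7 RPKM in the CR32027-IR1-labelled libraries, 2.82, 1.42 and 1.7 RPKM in CR32027-IR2, and 2.15, 3.27 and 4 RPKM in OreR. These 3 genes were picked from the list of 14 after the values were seen. Summed over the whole list, blood cell markers ranged from 11 to 26 RPKM in the CR32027-IR1-labelled libraries, 17 to 22.3 RPKM in CR32027-IR2 and 23.7 to 36.8 RPKM in OreR, and no marker of the list was at 0 in all libraries. In bulk RNA, fewer cells of a type and less RNA per cell cannot be told apart.

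The laminin chains were the most abundant members and the collagen IV chains and nidogen the least. Levels can be set side by side between genes when reads are divided by exonic length and library depth (reads per exonic kilobase in the RPKM scale), with exon lengths from the BDGP6 annotation. On that scale OreR averaged 74.3 ± 3.54 for LanA and 73.1 ± 4.58 for LanB1, which did not differ beyond their spread. Mmp2 followed at 16 ± 3.85, SPARC at 6.87 ± 0.406 and Timp at 3.78 ± 0.201. Col4a1 at 2.45 ± 0.919 and Ndg at 2.13 ± 0.356 overlapped, and vkg had 1.13 ± 0.444 (SD, n = 3 each). The sources used here do not say whether reads within introns were counted, which matters most for Mmp2, whose recovered length was 14.4 times its exonic length. The members differed in how far their level ranged over the libraries. Across the 9 libraries the highest RPKM was 1.17 times the lowest for LanB1 and 1.37 times for LanA. It was 1.65 times for Timp, 2.1 times for SPARC and 2.6 times for Mmp2, and 5.81 times for Col4a1, 5.77 times for vkg and 5.11 times for Ndg.

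**Figure D1:**
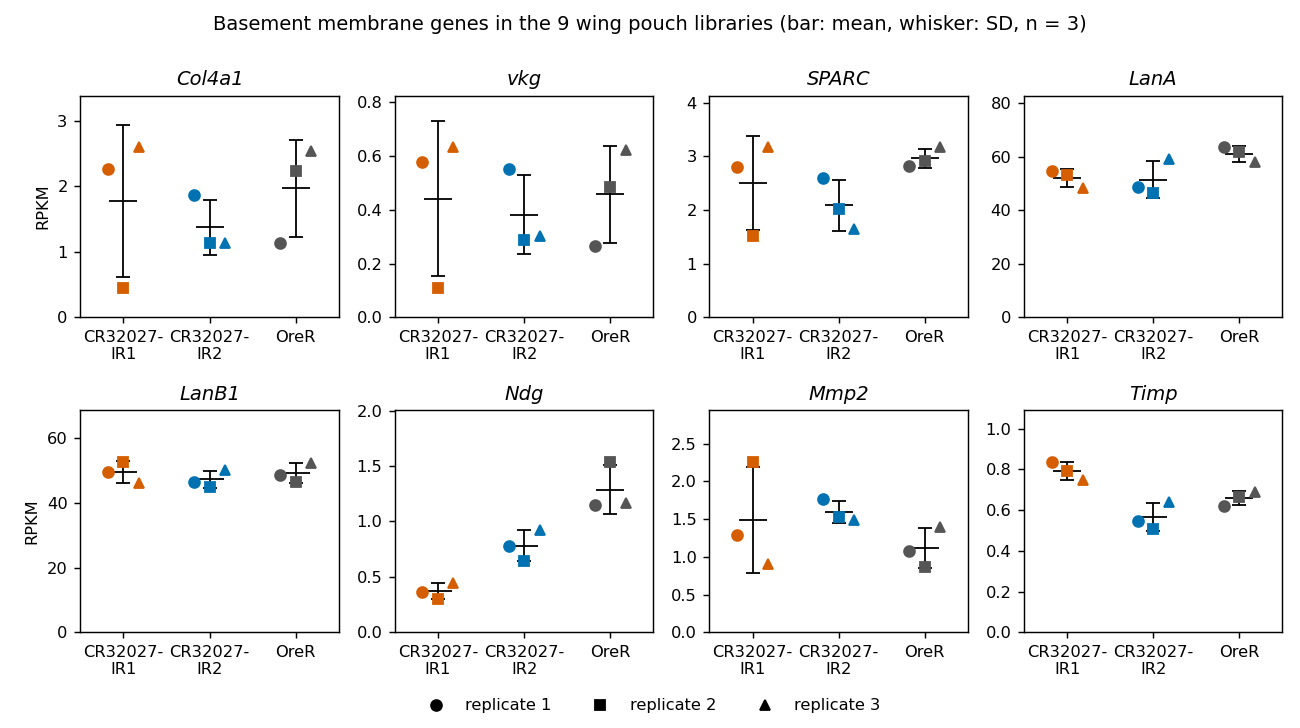
RPKM (y axis, from 0) of the 8 matched basement membrane genes in each library of CR32027-IR1, CR32027-IR2 and OreR; symbols are replicates, the horizontal bar is the mean and the whisker the SD of 3 libraries. Ndg lay between 0.3 and 0.443 RPKM in the CR32027-IR1-labelled libraries, between 0.644 and 0.924 in CR32027-IR2 and between 1.15 and 1.54 in OreR, while replicate 2 labelled CR32027-IR1 was far below the other libraries in Col4a1 and vkg.

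Few members were called in any comparison. With limma on log2(RPKM + 1) and genes averaging at least 1 RPKM, 5 members were tested (Col4a1, SPARC, LanA, LanB1 and Mmp2), since vkg, Ndg and Timp averaged less. At an adjusted p under 0.05, 0 of 5 were called between the CR32027-IR1-labelled libraries and OreR, where 13.7% of all genes tested were called. The count was also 0 of 5 for CR32027-IR2 against OreR, with 5.15% of all genes called, and 0 of 5 for CR32027-IR1 against CR32027-IR2, with 21.9% called. At an unadjusted limma p under 0.05, 1 of 5 members, LanA, passed in each comparison with OreR, beside 29.9% of all genes for the CR32027-IR1-labelled libraries and 18.3% for CR32027-IR2. In the direct comparison 0 of 5 passed, beside 36.4% of all genes. All 8 matched members entered limma without the filter on low values and limma voom on the reads recovered from the RPKM steps, which weights each value by its read count. For the CR32027-IR1-labelled libraries against OreR both fits called 1 of 8, Ndg, beside 7.33% of all genes without the filter and 13.3% with voom. For CR32027-IR2 against OreR the count was 0 of 8 without the filter, beside 3.33%, and 1 of 8 with voom, again Ndg, beside 5.44%. Between the hairpin genotypes both fits called 2 of 8, Ndg and Timp, beside 12.3% without the filter and 21% with voom. The 2 comparisons with OreR share their control libraries.

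The libraries of the genotypes were separate for a few members. Those with the CR32027-IR1 label did not overlap OreR for 3 of 8 members (LanA and Ndg lower, Timp higher), beside 23.7% of all genes above 0. For CR32027-IR2 against OreR there were 3 of 8 (Ndg and SPARC lower, Mmp2 higher), beside 22.2%, and between the hairpin genotypes 2 of 8 (Timp higher and Ndg lower with the CR32027-IR1 label), beside 29.2%.

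**Figure D2:**
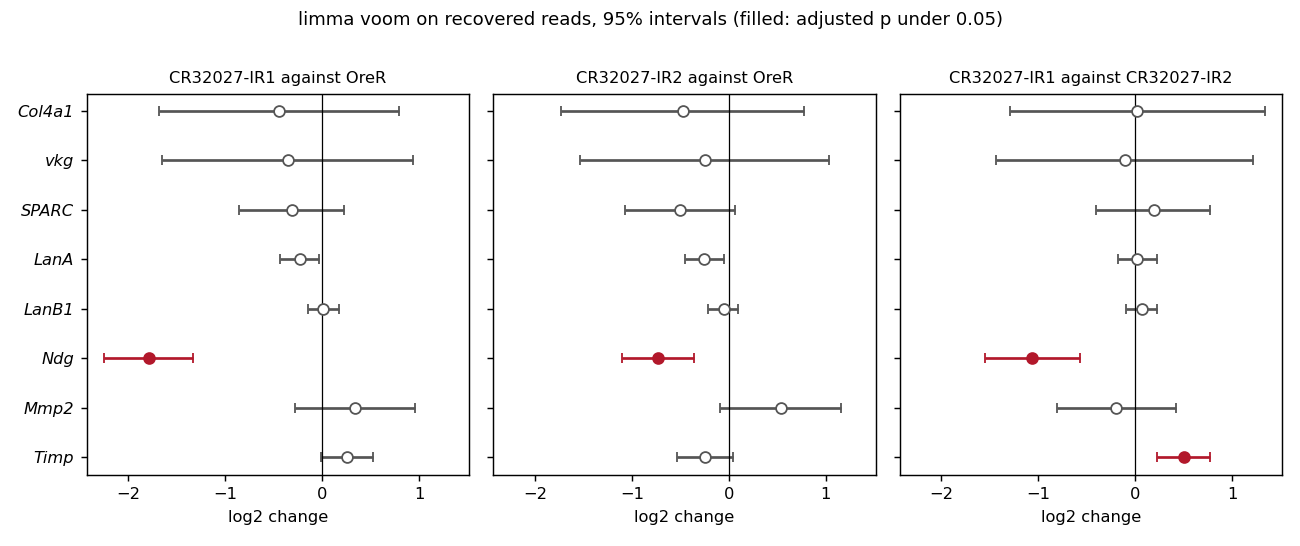
Log2 change (x axis) of each matched member in the 3 comparisons, from limma voom on recovered reads, with 95% intervals; filled points have an adjusted p under 0.05. Ndg lies left of 0 in all 3 panels, Timp lies right of 0 with a filled point between CR32027-IR1 and CR32027-IR2, and the intervals of Col4a1 and vkg are the widest.

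Nidogen was the member with the clearest difference: Ndg was lower in the CR32027-IR1-labelled libraries than in OreR, with CR32027-IR2 between them. Ndg (FBgn0026403) is a gene of 2R, on the plus strand from 10313891 to 10322104 (BDGP6). It had 0.366, 0.3 and 0.443 RPKM in the CR32027-IR1-labelled libraries, from 89, 72 and 115 reads. It had 0.779, 0.644 and 0.924 RPKM in CR32027-IR2, from 227, 152 and 185 reads, and 1.15, 1.54 and 1.17 RPKM in OreR, from 234, 335 and 322 reads. No library of one genotype overlapped another genotype's, with every library labelled CR32027-IR1 lowest and every OreR library highest.

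For the CR32027-IR1-labelled libraries against OreR, Ndg changed by -1.79 ± 0.21 on the log2 scale of reads (SE; limma voom, adjusted p = 0.000665), which is 29% of the OreR level. Without the filter, the change on the log2(RPKM + 1) scale was -0.74 ± 0.08 (limma, adjusted p = 0.00339). The voom call was made in all 9 fits that left out 1 library each, with log2 changes of -1.93 to -1.65. The CR32027-IR2 difference from OreR was smaller and less stable, at -0.73 ± 0.17 with voom (adjusted p = 0.0306; 60.5% of the OreR level) and -0.36 ± 0.08 without the filter (limma, adjusted p = 0.0726, not called). Voom no longer called it when replicate 1 labelled CR32027-IR1 was left out (0.0549), nor without CR32027-IR2 replicate 1 (0.11) or 2 (0.145) or OreR replicate 1 (0.0524) or 2 (0.106). Between the hairpin genotypes Ndg was lower in the CR32027-IR1-labelled libraries, at 47.9% of the CR32027-IR2 level (voom log2 change -1.06 ± 0.22, adjusted p = 0.00818, called in all 9 fits that left out 1 library each). Without the filter the difference was -0.38 ± 0.08 (limma, adjusted p = 0.0278), and it was not called without replicate 1 or 2 labelled CR32027-IR1 or CR32027-IR2 replicate 1 or 3 (0.0652 to 0.0875).

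The blood cell markers differed, some with the genotype order of Ndg in their means and others without it. Summed over the list they were lower in every CR32027-IR2 library than in every OreR library, but that separation rested on the crystal cell gene PPO2. Without PPO2 the sum was 18.3, 9.91 and 20 RPKM in the CR32027-IR1-labelled libraries, 19.5, 14.8 and 15.9 RPKM in CR32027-IR2, and 17.8, 19.1 and 23 RPKM in OreR, so that both hairpin genotypes overlapped OreR. The largest part of that sum was crq, at 7.55 of 9.91 RPKM in replicate 2 labelled CR32027-IR1 and 10.7 of 17.8 RPKM in OreR replicate 1. PPO2 itself was called lower than in OreR both in the CR32027-IR1-labelled libraries (log2 change -1.61; limma, adjusted p = 0.0447) and in CR32027-IR2 (-1.95; limma, adjusted p = 0.0402). Of 9 fits that left out a library each, the PPO2 call was kept in 2 for the CR32027-IR1-labelled libraries, without replicate 3 of that label or OreR replicate 1, and lost in the rest (0.0592 to 0.143). For CR32027-IR2 it was kept in 3, without CR32027-IR1 replicate 2 or 3 or OreR replicate 1, and lost in the rest (0.0701 to 0.147). The phagocytic receptor gene crq was lower in the CR32027-IR1-labelled libraries (-0.40; limma, adjusted p = 0.0011), and its change in CR32027-IR2 was -0.07 (adjusted p = 0.479). Without replicate 2 labelled CR32027-IR1, the Ndg change against OreR was -1.65 (voom, adjusted p = 0.00189). NimC1 ranged from 0.278 to 1.97 RPKM in the CR32027-IR1-labelled libraries and from 0.94 to 1.87 RPKM in OreR. For Sr-CI these ranges were 0.292 to 1.93 and 0.999 to 1.72 RPKM. In the order CR32027-IR1, CR32027-IR2 and OreR, Hml averaged 0.503, 0.653 and 0.96 RPKM and srp 0.0986, 0.11 and 0.185 RPKM, as Ndg was ordered. Averages of eater were 0.602, 0.539 and 0.829 RPKM and of Pxn 0.402, 0.346 and 0.518 RPKM, both lowest in CR32027-IR2. For each of Hml, srp, eater and Pxn the libraries of the genotypes overlapped. Ndg reads per read of Hml, NimC1 and eater ran from 0.172 to 1.26, a 7.34-fold range. Both ends lay in the CR32027-IR1-labelled libraries. The part of blood cells in the Ndg values was not tested. The gene CG34222, on the other strand within Ndg, was at 0 reads in all libraries.

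The collagen IV chains varied more within a genotype than between genotypes, and they varied together. Col4a1 (FBgn0000299) and vkg (FBgn0016075) lie head to head on 2L, vkg from 5012144 to 5028191 on the minus strand and Col4a1 from 5029609 to 5037279 on the plus strand, with 1417 bases between them (BDGP6). Col4a1 had 2.26, 0.447 and 2.6 RPKM in the CR32027-IR1-labelled libraries, 1.86, 1.14 and 1.13 RPKM in CR32027-IR2, and 1.13, 2.23 and 2.54 RPKM in OreR. The chain encoded by vkg had 0.579, 0.11 and 0.634 RPKM in the CR32027-IR1-labelled libraries, 0.55, 0.289 and 0.303 RPKM in CR32027-IR2, and 0.265, 0.486 and 0.621 RPKM in OreR. The genotypes overlapped for both genes, and both were lowest in replicate 2 labelled CR32027-IR1 and highest in replicate 3 with that label. The lowest Col4a1 value rests on 103 reads, with an exact 95% Poisson interval of 84.1 to 125, and the lowest vkg value on 53 reads, with an interval of 39.7 to 69.3; these intervals cover counting error only.

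Col4a1 changed by -0.17 ± 0.33 in the CR32027-IR1-labelled libraries against OreR (log2(RPKM + 1), SE; limma, adjusted p = 0.771) and by -0.30 ± 0.33 in CR32027-IR2 against OreR (adjusted p = 0.727). The 95% intervals ran from -0.92 to 0.57 with the CR32027-IR1 label and from -1.05 to 0.45 in CR32027-IR2. Without replicate 2 labelled CR32027-IR1 the change against OreR was 0.24 (limma, adjusted p = 0.469). With voom vkg changed by -0.35 ± 0.58 in the CR32027-IR1-labelled libraries (adjusted p = 0.738), and the CR32027-IR2 change was -0.24 ± 0.58 (adjusted p = 0.886). Although each gene ranged more than 5-fold, the ratio of vkg reads to Col4a1 reads in a library stayed between 0.455 and 0.618, a 1.36-fold range. That ratio averaged 0.521 ± 0.0142 in the CR32027-IR1-labelled libraries, 0.569 ± 0.0453 in CR32027-IR2 and 0.485 ± 0.0286 in OreR (SD, n = 3 each).

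The level of the collagen IV chains followed some of the blood cell genes across libraries. Replicate 2 labelled CR32027-IR1, where Hml, NimC1 and eater were lowest, had 18.4% of the Col4a1 and 18.1% of the vkg of the mean of the other libraries with that label. The level of SPARC there was 50.4%, and Ndg was at 74.3%. In contrast Timp was at 99.8%, LanA at 103%, LanB1 at 110% and Mmp2 at 205%. Of the other listed blood cell markers, Pxn was at 13.2%, He at 14.5% and PPO2 at 24.2% there, but crq was at 97.5% and ush at 103%. Per read of Hml, NimC1 and eater there were 1.28 ± 0.46 Col4a1 reads in the CR32027-IR1-labelled libraries, 0.805 ± 0.0308 in CR32027-IR2 and 0.74 ± 0.047 in OreR (SD, n = 3 each). Every library labelled CR32027-IR1 was above every other. For vkg this ratio was 0.663 ± 0.232, 0.457 ± 0.0185 and 0.359 ± 0.0315 in the same order, and the genotypes did not overlap. For SPARC they overlapped. Hml gave most reads of the trio, with 664, 864 and 1201 reads summed over the libraries of each genotype in the same order. NimC1 gave 340, 197 and 321 and eater 217, 194 and 279, so these genes did not order the genotypes alike. The separation therefore holds for this trio, which was picked after the values were seen. Ratios to single blood cell genes are not given here. What sets these ratios was not tested.

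By a Pearson correlation over the 9 libraries with the mean log2(RPKM + 1) of Col4a1 and vkg, the 5 most similar of 7432 genes were CG31337 (r = 0.948), He (0.947), NimC1 (0.946), Sr-CI (0.938) and CG1092 (0.932). He encodes the blood cell surface protein Hemese and Sr-CI a scavenger receptor of blood cells, and both are on the blood cell list with NimC1. All 5 were lowest in replicate 2 labelled CR32027-IR1, so these values are a description of 9 points that share that library. By the same measure, r was between 0.828 and 0.95 for Hml, NimC1, eater, Sr-CI, He, srp and Pxn of the blood cell list, and 0.667 for PPO2, which was highest in OreR replicate 2. For crq it was 0.0906 and for ush -0.129, and for the markers NimC2, NimC4, lz and atilla, none above 0.54 RPKM in any library, it lay between 0.085 and 0.432. Fat body markers, 8 of 8 matched, summed to 1.72 to 3.9 RPKM in the CR32027-IR1-labelled libraries, 1.51 to 4.82 RPKM in CR32027-IR2 and 1.4 to 1.92 RPKM in OreR, which overlapped. The part of attached blood cells or fat body in the collagen IV values was not tested.

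**Figure D3:**
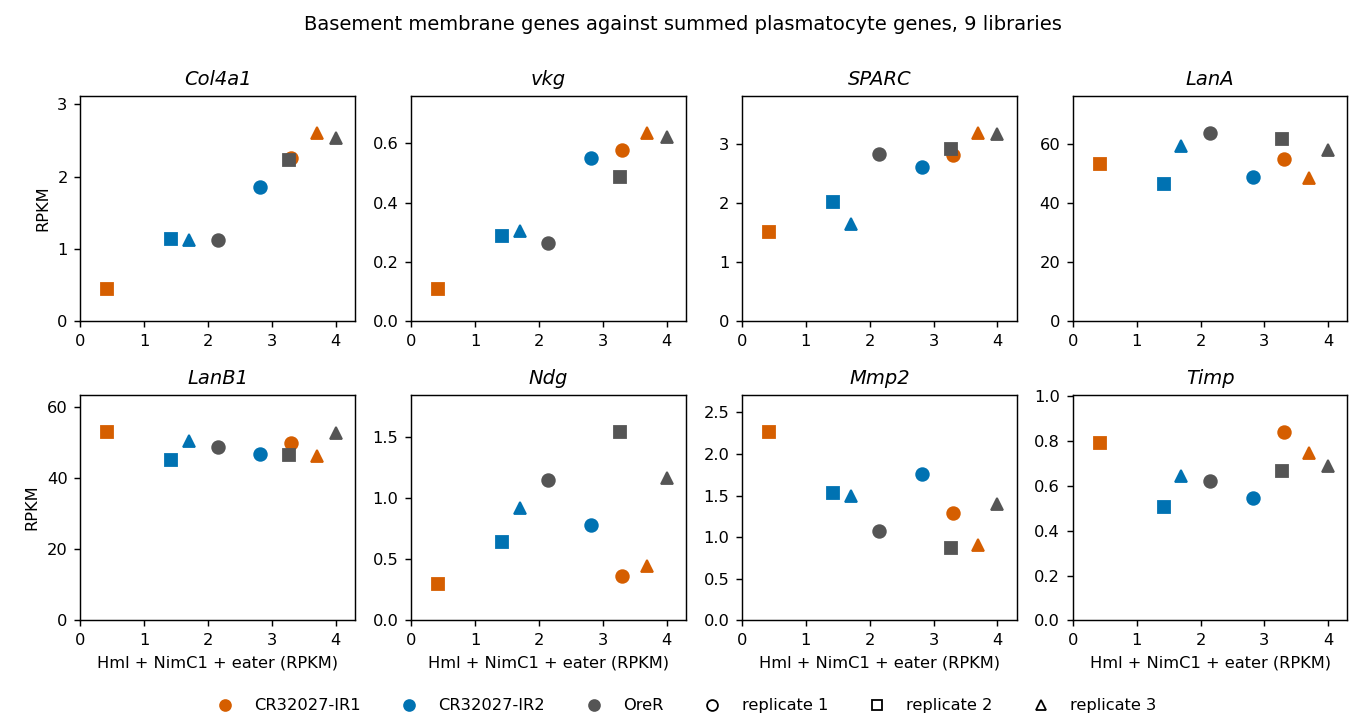
RPKM of each matched member (y axis, from 0) against the summed RPKM of the plasmatocyte genes Hml, NimC1 and eater (x axis), one point per library, coloured by genotype. Col4a1 and vkg are at 0.447 and 0.11 RPKM at the lowest sum, 0.425, which is replicate 2 labelled CR32027-IR1. They are at 2.54 and 0.621 RPKM at the highest sum, 4. Between these, Col4a1 is at 1.14, 1.13 and 1.13 RPKM at sums of 1.42, 1.7 and 2.15. LanA and LanB1 are flat. The summed genes were picked from the blood cell list after the values were seen, and other genes of that list, such as crq and ush, did not follow the collagen IV chains.

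SPARC, the collagen-binding partner, had 2.81, 1.51 and 3.18 RPKM in the CR32027-IR1-labelled libraries, 2.6, 2.02 and 1.65 RPKM in CR32027-IR2, and 2.83, 2.91 and 3.17 RPKM in OreR. Every CR32027-IR2 library lay under every OreR library, while the CR32027-IR1-labelled libraries spanned the OreR range. The difference between CR32027-IR2 and OreR did not pass, at -0.37 ± 0.18 with a 95% interval of -0.78 to 0.04 (limma, adjusted p = 0.333). In the CR32027-IR1-labelled libraries the change was -0.21 ± 0.18 (adjusted p = 0.479), and without replicate 2 it was 0.01. SPARC did not follow the collagen chains as closely as they followed each other, with 0.443 to 1.22 SPARC reads per Col4a1 read.

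The laminin chains varied least. LanA (FBgn0002526), the alpha chain, lies on the minus strand of 3L from 6203831 to 6218022, and LanB1 (FBgn0261800), the beta chain, on the plus strand of 2L from 7811438 to 7820771 (BDGP6). LanA had 54.9, 53.3 and 48.5 RPKM in the CR32027-IR1-labelled libraries, 48.8, 46.6 and 59.3 RPKM in CR32027-IR2, and 63.8, 61.7 and 58 RPKM in OreR. The libraries labelled CR32027-IR1 were all lower than the OreR libraries, and 2 of 3 CR32027-IR2 libraries were. LanA changed by -0.23 ± 0.09 in the CR32027-IR1-labelled libraries (limma, adjusted p = 0.125) and by -0.25 ± 0.09 in CR32027-IR2 (limma, adjusted p = 0.165), so neither passed. Without CR32027-IR2 replicate 3, whose LanA lay within the OreR range, the CR32027-IR2 change was -0.35 and passed (limma, adjusted p = 0.0336).

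LanB1 had 49.7, 52.8 and 46.2 RPKM in the CR32027-IR1-labelled libraries, 46.6, 45 and 50.3 RPKM in CR32027-IR2, and 48.6, 46.5 and 52.5 RPKM in OreR. Its genotypes overlapped. Against OreR it changed by 0.01 ± 0.07 in the CR32027-IR1-labelled libraries (95% interval -0.14 to 0.16; limma, adjusted p = 0.938) and by -0.05 ± 0.07 in CR32027-IR2 (95% interval -0.21 to 0.10; limma, adjusted p = 0.763). These were the narrowest intervals among the 5 members tested. LanB1 reads per LanA read averaged 0.625 ± 0.0282 in the CR32027-IR1-labelled libraries, 0.607 ± 0.0421 in CR32027-IR2 and 0.53 ± 0.0562 in OreR.

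Among the remodelling genes, Timp was higher in the CR32027-IR1-labelled libraries than in CR32027-IR2, and Mmp2 did not pass in any comparison. Timp (FBgn0025879) lies on the minus strand of 3R from 10203875 to 10213007 (BDGP6), within the span of Syn on the plus strand, which had 5 to 17 reads per library. It had 0.838, 0.792 and 0.748 RPKM in the CR32027-IR1-labelled libraries, 0.546, 0.507 and 0.642 RPKM in CR32027-IR2, and 0.62, 0.665 and 0.689 RPKM in OreR. The libraries labelled CR32027-IR1 were above all others, and CR32027-IR2 overlapped OreR. Between the hairpin genotypes Timp differed by 0.50 ± 0.12 on the log2 scale of reads (limma voom, adjusted p = 0.0168; 142% of the CR32027-IR2 level) and by 0.20 ± 0.04 on the log2(RPKM + 1) scale without the filter (limma, adjusted p = 0.021). Leaving out replicate 1 labelled CR32027-IR1 (0.0608) or CR32027-IR2 replicate 1 (0.0685) or 2 (0.0745) ended the voom call, and the same libraries ended the other (0.067 to 0.0698). Against OreR, Timp changed by 0.26 ± 0.12 in the CR32027-IR1-labelled libraries (voom, adjusted p = 0.179) and by -0.24 ± 0.13 in CR32027-IR2 (adjusted p = 0.37).

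Mmp2 (FBgn0033438), on the minus strand of 2R from 9611139 to 9683858 (BDGP6), encodes the membrane-anchored metalloproteinase. It had 1.29, 2.26 and 0.902 RPKM in the CR32027-IR1-labelled libraries, 1.76, 1.53 and 1.49 RPKM in CR32027-IR2, and 1.07, 0.869 and 1.4 RPKM in OreR. Each CR32027-IR2 library was above each OreR library, and the highest value was in replicate 2 labelled CR32027-IR1, where the blood cell genes were lowest. The changes were 0.21 ± 0.18 in the CR32027-IR1-labelled libraries (limma, adjusted p = 0.493) and 0.30 ± 0.18 in CR32027-IR2 (limma, adjusted p = 0.442). The 95% intervals ran from -0.20 to 0.61 with the CR32027-IR1 label and from -0.11 to 0.71 in CR32027-IR2. Without replicate 2 labelled CR32027-IR1 its change against OreR was -0.01, and the voom difference between the hairpin genotypes was then -0.55 and passed (adjusted p = 0.0495). In that same fit SPARC was higher in the CR32027-IR1-labelled libraries, by 0.50 (adjusted p = 0.0499).

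The secreted metalloproteinase gene Mmp1, which is not a member, was highest in CR32027-IR2. Its span overlaps that of Pof, which had 732 to 1196 reads per library, and how the counting treated shared bases is not known here. It had 5.24, 6.28 and 6.66 RPKM in the CR32027-IR1-labelled libraries, 16.5, 14.5 and 15.2 RPKM in CR32027-IR2, and 4.52, 4.43 and 4.76 RPKM in OreR. In the direct comparison Mmp1 was lower in the CR32027-IR1-labelled libraries (-1.22 ± 0.08; limma, adjusted p = 3.33e-05). Mmp1 reads per Mmp2 read averaged 1.1 ± 0.552 in the CR32027-IR1-labelled libraries, 2.25 ± 0.1 in CR32027-IR2 and 0.986 ± 0.197 in OreR (SD, n = 3 each), with every CR32027-IR2 library above every other. Mmp2 reads per Timp read averaged 14.9 ± 6.91 in the CR32027-IR1-labelled libraries, 22.7 ± 3.76 in CR32027-IR2 and 13.4 ± 2.89 in OreR. Tracheal markers, 5 of 6 matched, summed to 157 to 212 RPKM in the CR32027-IR1-labelled libraries, 230 to 262 RPKM in CR32027-IR2 and 149 to 194 RPKM in OreR, but they did not move together. The cuticle chitin deacetylase gene serp was higher in CR32027-IR2 than in OreR, at 36.4 ± 2.52 against 16.6 ± 2.37 RPKM (limma, adjusted p = 0.000974), and verm, of the same family, averaged 139 ± 13.1 against 80.5 ± 19.7 RPKM (adjusted p = 0.0525). The tracheal regulator gene trh was lower in CR32027-IR2, at 3.65 ± 0.103 against 4.87 ± 0.342 RPKM (limma, adjusted p = 0.0427). That call was lost without any single CR32027-IR2 library or OreR replicate 1 or 2 (0.096 to 0.163). With the CR32027-IR1 label trh was also called lower than in OreR, at 3.48 ± 0.376 RPKM, a call lost only without OreR replicate 2 (0.0539). In CR32027-IR2 against OreR, Gasp at 15.1 ± 1.06 against 17.1 ± 2.28 RPKM and Cht2 at 52.2 ± 0.549 against 49.6 ± 1.27 RPKM did not pass (limma, adjusted p = 0.415 and 0.557; SD, n = 3 each). The part of tracheal cells in the Mmp1 values was not tested.

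Genes that act on or receive the same matrix were followed in 3 further lists, also chosen with earlier results of these data known. Of the secretion and processing list, 12 of 13 genes were matched and 11 tested. Against OreR 0 of these were called in the CR32027-IR1-labelled libraries, beside 13.7% of all genes, and 0 in CR32027-IR2, beside 5.15% (limma, adjusted p under 0.05). The collagen lysyl hydroxylase gene Plod was higher in the CR32027-IR1-labelled libraries than in CR32027-IR2, at 9.39 ± 0.622 against 7.18 ± 0.197 RPKM (0.34; limma, adjusted p = 0.012), where 12.3% of all genes were called higher. For the CR32027-IR1-labelled libraries against OreR the list's median log2(RPKM + 1) change was 0.07, beside -0.17 over the 5 tested members and 0.01 over all genes tested. For CR32027-IR2 against OreR these medians were 0.03, -0.25 and -0.02.

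Of the other matrix proteins and enzymes, 13 of 15 were matched and 8 tested. Of these 1 was called higher and 0 lower in the CR32027-IR1-labelled libraries against OreR, where 6.09% of all genes were called higher. That gene was Mmp1 (0.34; adjusted p = 0.0269), and its call ended without replicate 2 or 3 labelled CR32027-IR1 or without any single OreR library (0.05 to 0.0913). In CR32027-IR2 against OreR 4 were called higher and 0 lower, where 2.93% of all genes were called higher: Mmp1, Tig (a matrix ligand of integrins) and the cell surface glypicans dally and dlp. Tig had 1.83 ± 0.198 RPKM in CR32027-IR2 and 0.526 ± 0.146 RPKM in OreR (0.89; limma, adjusted p = 0.00177, called in all 9 fits that left out 1 library each). The dally change was 0.46 (adjusted p = 0.0104) and was lost without CR32027-IR2 replicate 2 (0.0524). The dlp change of 0.38 (adjusted p = 0.04) was kept in 2 of those 9 fits, without CR32027-IR1 replicate 2 or 3.

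In the direct comparison wb, the other laminin alpha chain, was higher in the CR32027-IR1-labelled libraries (0.52; limma, adjusted p = 0.0232), where 12.3% of all genes were called higher. It was not called without CR32027-IR1 replicate 1 (0.0762) or without any single CR32027-IR2 library (0.0565 to 0.071). Lower in the CR32027-IR1-labelled libraries were 4 genes, where 9.57% of all genes were called lower: AdamTS-B (-0.38; adjusted p = 0.0162, lost without CR32027-IR2 replicate 2 or 3, at 0.0611 and 0.0571), Mmp1, Tig (-0.60; adjusted p = 0.00581) and dlp (-0.42; adjusted p = 0.00975). The ADAMTS-like matrix gene loh, which averaged under 1 RPKM, was lower in the CR32027-IR1-labelled libraries than in OreR with voom (-1.70; adjusted p = 0.00264).

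Of the receptors and their adaptors, 13 of 16 were matched and 11 tested. The integrin alpha gene ItgaPS5 was lower than in OreR in both hairpin genotypes, with 3.12 ± 0.335 RPKM in the CR32027-IR1-labelled libraries, 2.4 ± 0.23 RPKM in CR32027-IR2 and 5.05 ± 0.498 RPKM in OreR (limma, adjusted p = 0.00514 with the CR32027-IR1 label and 0.000957 in CR32027-IR2). Called lower in the CR32027-IR1-labelled libraries against OreR were 2 genes of the 11, where 7.61% of all genes were called lower: ItgaPS5 and if, the integrin alphaPS2 gene. The if change of -0.36 (adjusted p = 0.0432) was kept in 1 of 9 fits that left out a library each, without CR32027-IR1 replicate 2. In CR32027-IR2 against OreR 1 gene was called lower, ItgaPS5, where 2.22% of all genes were. The focal adhesion gene Vinc was called higher there (0.36; adjusted p = 0.0303), where 2.93% of all genes were, a call kept in 2 of 9 such fits, without CR32027-IR1 replicate 2 or 3. Between the hairpin genotypes 3 genes were lower in the CR32027-IR1-labelled libraries, where 9.57% of all genes were called lower, namely if (-0.48; adjusted p = 0.0102), the integrin beta gene mys (-0.43; adjusted p = 0.00187) and the talin gene rhea (-0.28; adjusted p = 0.0149). The call of rhea ended without replicate 1 labelled CR32027-IR1 (0.0531) or CR32027-IR2 replicate 1 (0.0535) or 3 (0.0518). With voom 12 of this list were tested. In CR32027-IR2 against OreR 3 were called higher (ItgaPS4, Vinc and rhea) and 1 lower (ItgaPS5), beside 5.44% of all genes in either direction. In the CR32027-IR1-labelled libraries against CR32027-IR2, 2 were higher (mew and stck) and 4 lower (ItgaPS4, if, mys and rhea), beside 21%. ItgaPS4 averaged 0.52 ± 0.322 RPKM in CR32027-IR2 and 0.0449 ± 0.0259 RPKM in OreR. Its reads summed over the libraries of a genotype were few, 184 in CR32027-IR2, 17 in OreR and 41 in the CR32027-IR1-labelled libraries. Limma without the filter on low values did not call it in either of these comparisons.

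**Figure D4:**
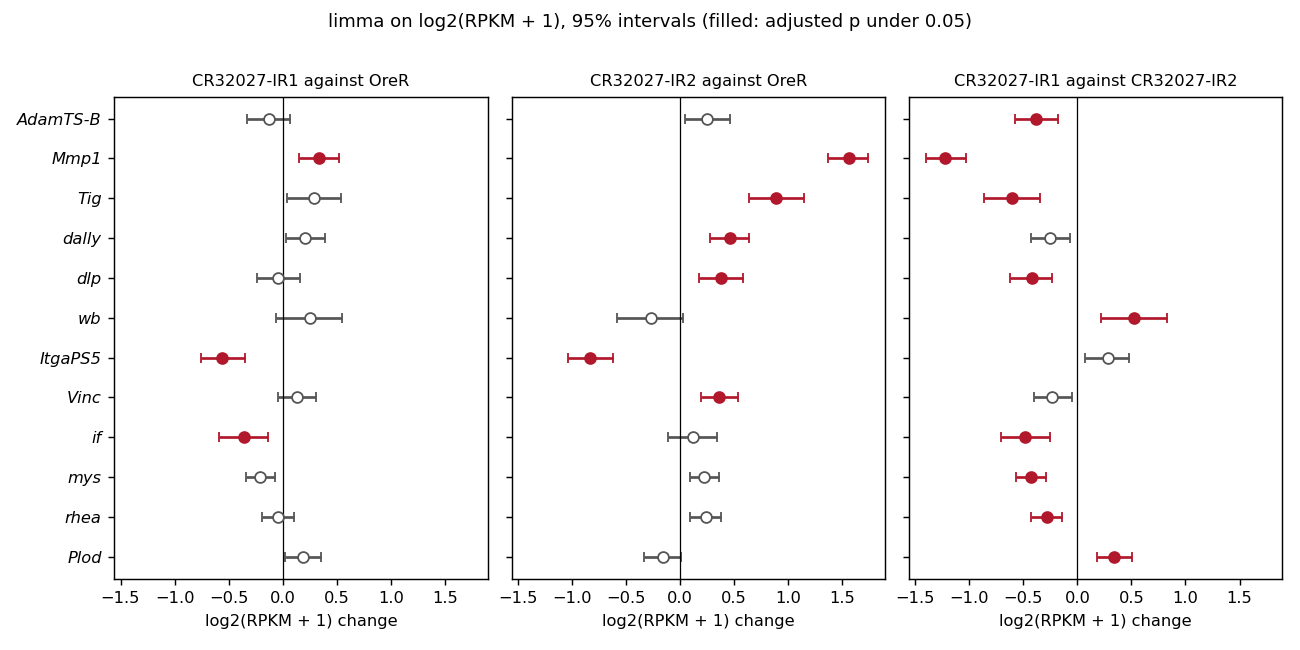
Change on the log2(RPKM + 1) scale (x axis) of the genes of the 3 further matrix lists that were called in at least 1 comparison, from limma, with 95% intervals; filled points have an adjusted p under 0.05. Mmp1 has the largest change drawn, at 1.56 in CR32027-IR2 against OreR, and ItgaPS5 is the gene with a filled point left of 0 in both comparisons with OreR.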

How the data were processed

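The authors deposited RPKM values for 15682 genes in 9 libraries of TruSeq stranded poly(A) RNA-seq, with 100 ng of RNA as input, per the labels' protocols. CASAVA 1.8.2 and TopHat2 are named in the submitters' processing notes, and the sources used here do not name the read counter, its strand setting or the annotation. By gene identifier 15001 genes were given BDGP6 symbols and positions; the notes name another build, dm3, and no coordinate was converted. The steps between low values in a library, each 1 read, gave depths of 25070343 to 36512316 reads and whole reads, within 0.01, for 9232 of 9232 genes above 0 in every library. The lengths found lay within 2% of the genomic span for 78.4% of 7001 genes with introns.

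The main test was limma 3.58.1 (R 4.3.3) with an intensity trend on log2(RPKM + 1), over genes averaging at least 1 RPKM, in all 9 libraries, with 6 residual degrees of freedom and Benjamini-Hochberg adjustment over all genes tested, called under 0.05. This scale understates changes of low genes. Intervals from reads are exact Poisson intervals and cover counting error only. Alternatives were another pseudocount, other filters, quantile scaling, no trend, array weights, 2 genotypes at a time, a replicate block, voom on recovered reads (at least 10 reads on average) and leaving out each library. Leaving out libraries without the filter or with voom was added after the data were seen. The fit was tested on simulated data. Named were all members, Mmp1, the list genes called in at least 1 comparison and the 5 genes most like the collagen IV chains. Named after their values were seen were loh, ItgaPS4, mew, stck, the blood cell genes, the trio summed, the blood cell sum without PPO2, the tracheal genes and the notum genes. The members and lists were chosen with earlier results of these data known. Other steps used matplotlib 3.10.9, scipy 1.17.1, pandas 2.3.3 and numpy 2.4.6 in Python 3.11.15.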

Additional observations from a re-analysis of the deposited data

How the results depend on the processing

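The number of called members changed with the filter and the method. For the CR32027-IR1-labelled libraries against OreR the count was 0 with the filter, 1 without it and 1 with voom. For CR32027-IR2 against OreR it was 0 with the filter, 0 without it and 1 with voom, and when a library was left out 0 to 1 with the filter and 0 to 2 with voom (LanA and Ndg without CR32027-IR2 replicate 3). Between the hairpin genotypes it was 0 with the filter, 2 without it and 2 with voom, and when a library was left out 0 to 2 without the filter and 1 to 4 with voom (4 without CR32027-IR1 replicate 2). The shares of all genes called when a library was left out, without the filter or with voom, are not given here. These counts can therefore not be read as a result about the members. With all libraries in, voom called 5.44% of all genes for CR32027-IR2 against OreR. Between the hairpin genotypes it called 21%, and 12.3% were called without the filter. Genes called over the whole table also changed in number. For the CR32027-IR1-labelled libraries against OreR (1019) they were 371 with array weights, 612 with only these genotypes fitted, 565 with the replicate block and 485 to 1320 when a library was left out. For CR32027-IR2 against OreR (383) they were 972 with array weights, 222 with the replicate block and 187 to 504 without a library, and between the hairpin genotypes (1625) 706 with array weights and 970 to 2159 without a library. The cause was not tested.

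Samples of the same replicate number did not deviate together (r from -0.237 to 0.116 in 9 pairs), so the numbers are not treated as pairs. With the replicate block and no filter, Ndg was still called for CR32027-IR1 against OreR (adjusted p = 0.0269), while the differences of Ndg (adjusted p = 0.0813) and Timp (0.0701) between the hairpin genotypes and of Mmp1 for CR32027-IR1 against OreR (0.0628, with the filter) were not; all are limma values.

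Directions turned for members that were not called with all libraries in. When a library was left out, the log2 change of Col4a1 ran from -0.42 to 0.24 for CR32027-IR1 against OreR and from -0.12 to 0.54 between the hairpin genotypes, where array weights gave -0.10. In the same way vkg, without the filter, ran from -0.13 to 0.15 for CR32027-IR1 against OreR (0.05 without OreR replicate 3), from -0.17 to 0.01 for CR32027-IR2 against OreR and from -0.05 to 0.22 between the hairpin genotypes, where voom gave -0.11. LanB1 ran from -0.03 to 0.06, SPARC from -0.36 to 0.01 and Mmp2 from -0.01 to 0.38 for CR32027-IR1 against OreR. LanA ran from -0.04 to 0.13 and Mmp2 from -0.31 to 0.08 between the hairpin genotypes. In all, 449 of 495 alternative log2 changes of single genes kept direction and side of the threshold, 21 lost a call, 6 gained one and 19 turned. Read numbers of 53 to 342 per library for vkg, Ndg, SPARC and Timp limit their precision.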
